A study of Mus musculus with 15 samples.

Results

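The AP-1 factor genes are Fos, Fosb, Fosl1, Fosl2, Jun, Junb, Jund and Atf3, which are 8 of 21887 protein-coding genes of the mouse genome build GRCm38. They were taken by name, and a gene counts as bound in a library when its span with 5 kb added on each side overlaps a peak of heat shock factor 1 (HSF1). Brown adipose tissue (BAT) of mice was profiled for HSF1 by chromatin immunoprecipitation and sequencing (ChIP-seq), with 10 libraries in 5 groups of 2. Wild type (WT) animals were sampled at room temperature (RT), after 40 min of cold stress (the first pair) and after 4 h of cold stress. A further group carries the genotype label TXNIP KO and was sampled at 40 min of cold stress, and another WT pair at 40 min of cold stress (the second pair) carries the replicate labels 1.1 and 2.1. Crosslinking used DSG (2 mM, 25 min) and formaldehyde (0.8%, 12 min) in every group, and the HSF1 antibody was Cell Signaling 4356. The labels name the knockout by gene alone and give no allele, age or sex, and the tissue label was not tested, since HSF1 peaks do not measure expression. Nothing in the labels says that replicate libraries are separate animals or cultures, so a p-value over libraries measures only their spread, which may be technical.

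AP-1 is a dimer of basic leucine zipper proteins that binds DNA and activates or represses genes in response to growth signals, cytokines and stress. JUN proteins pair with themselves, with FOS proteins or with ATF factors, whereas FOS proteins need a partner. Most of these genes are immediate early genes, which are transcribed within minutes of a stimulus without new protein synthesis. HSF1 is the main activator of chaperone genes under proteotoxic stress and binds heat shock elements, which are inverted repeats of the letters GAA.

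The peak lists hold no read counts, so the depth behind them is unknown. They ran to 919 and 1269 peaks at RT, 2287 and 1670 in the first pair, 123 and 351 at 4 h, 10399 and 10633 in TXNIP KO, and 12644 and 14583 in the second pair. The fold enrichment of a peak and its −log10 q are the authors' own values for that peak, and its rank is its place in the list by their −log10 p. Folds of different libraries are set side by side as descriptions, because the depth and the input behind them may differ, and a rank is read only within its own list. All 9 known HSF1 target genes examined as a check of the ChIP (Hspd1, Hspe1, Hspa1a, Hspa1b, Hspa8, Hsph1, Hsp90aa1, Hsp90ab1 and Dnajb1) had a peak in 10 of 10 libraries.

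Jun had the strongest HSF1 peak of the AP-1 genes in all 8 libraries that called any of them, and it was the only one of the 8 genes bound at RT. Of the 8 genes, 1 was bound by both replicates at RT, 1 in the first pair, 0 at 4 h, 6 in TXNIP KO and 8 in the second pair. The share of all protein-coding genes bound by both replicates was 2.95% at RT, 4.97% in the first pair, 0.466% at 4 h, 21% in TXNIP KO and 26.6% in the second pair. In single libraries 1 and 1 of the 8 genes were bound at RT (background 3.25% and 4.3%), 2 and 1 in the first pair (7.21% and 5.46%) and 0 and 0 at 4 h (0.493% and 1.27%). TXNIP KO libraries had 6 and 6 (25% and 26%), and second pair libraries had 8 and 8 (30.2% and 33.1%). Among 9823 genes with spans between the shortest and the longest of these genes (1840 to 21369 bp), the background was 18.4% in TXNIP KO and 22.6% in the second pair.

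**Figure D1:**
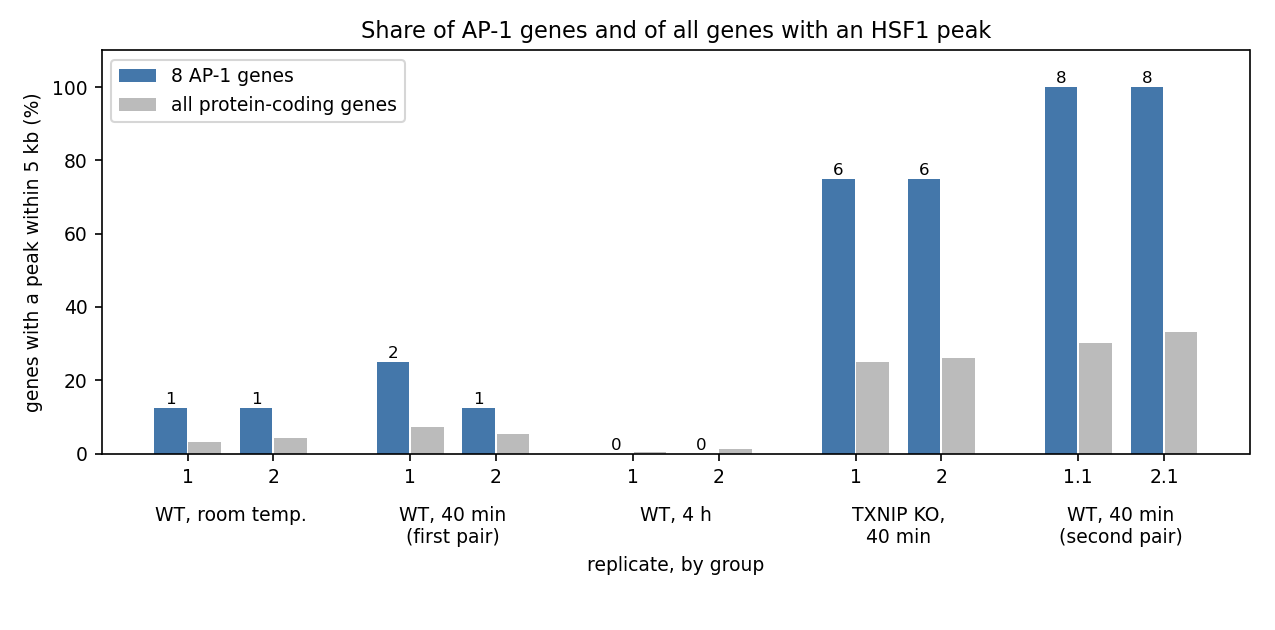
Percent of the 8 AP-1 genes (blue bars, with the number of genes above each) and of 21887 protein-coding genes (grey bars) that have an HSF1 peak within 5 kb, in each of the 10 libraries. The blue bars stand at 12.5% for both RT libraries, at 0 at 4 h, at 75% in both TXNIP KO libraries and at 100% in both second pair libraries.

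Jun encodes c-JUN, the founding subunit of AP-1 and the substrate that gives the JNK kinases their name. It lies on the minus strand of chromosome 4 at positions 95049036 to 95052222. The 250 bases before its start are shown because the summit of every Jun promoter peak lies in them (RefSeq sequence, GRCm38.p6, chr4:95052223-95052472, minus strand, written 5′ to 3′). Capitals mark 2 adjoining inverted units of a heat shock element.
Jun: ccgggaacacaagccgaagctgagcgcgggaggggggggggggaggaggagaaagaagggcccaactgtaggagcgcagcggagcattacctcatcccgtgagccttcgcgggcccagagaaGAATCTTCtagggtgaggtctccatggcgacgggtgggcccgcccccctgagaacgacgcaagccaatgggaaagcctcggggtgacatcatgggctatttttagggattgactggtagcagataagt
These letters, GAATCTTC, occupy positions -128 to -121 relative to the start (chromosome 4, 95052343 to 95052350).

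At RT the Jun promoter peak had folds of 24.1 and 16.2, the first pair had 21.7 and 23.4, and neither 4 h library had a peak. In TXNIP KO the folds were 92.9 and 84.2, against 88.4 and 101 in the second pair. The peak was thus called in 8 of 10 libraries, and the folds of the 4 long lists lay above those of the 4 shorter ones. The 8 summits fell within 24 bp of each other, from -136 to -112 relative to the start. Their distance from the centre of the GAATCTTC letters was 1.5 to 12.5 bp, and in 2 libraries the summit was inside the letters. TXNIP KO replicate 2 had a further weak peak inside Jun (3.36), 2088 bp after the start. The promoter peak was 598 and 585 bp wide at RT and up to 3772 bp wide in second pair replicate 2.1.

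**Figure D2:**
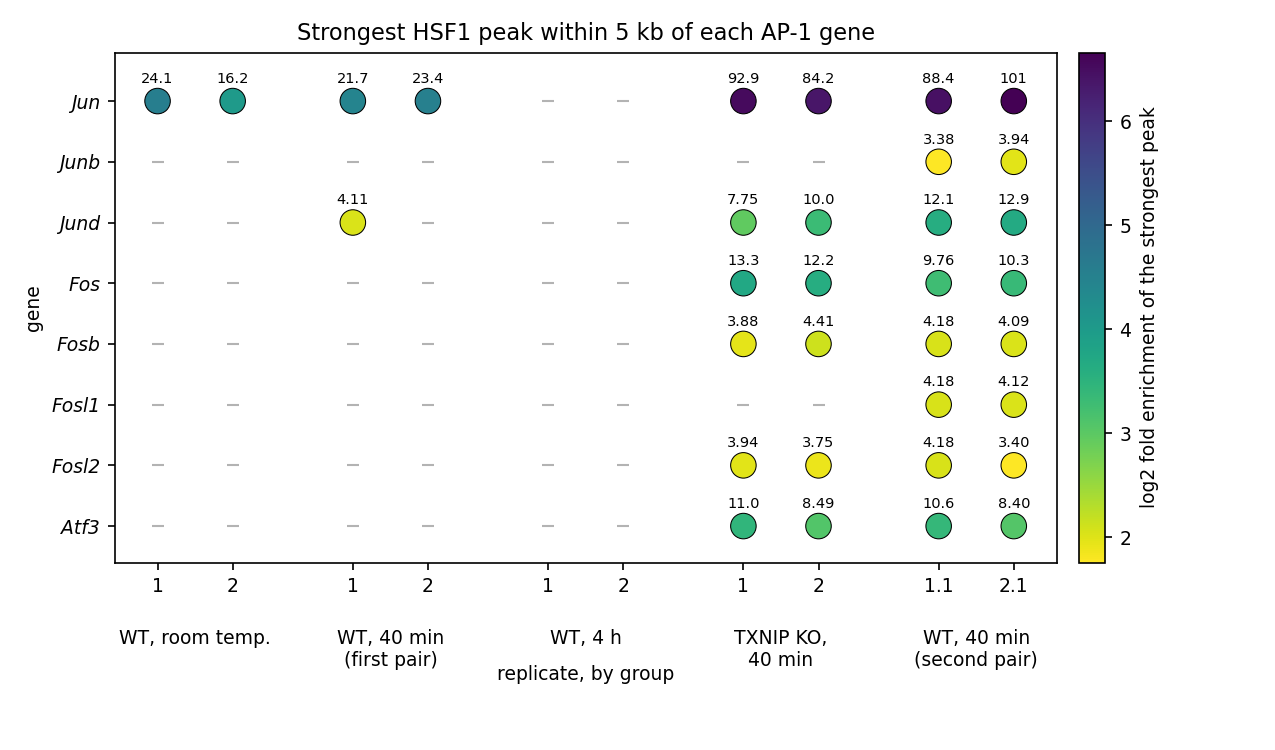
Fold enrichment of the strongest HSF1 peak within 5 kb of each AP-1 gene (rows) in each library (columns, grouped), printed above each point and coloured by its log2 value. Grey dashes mark libraries with no peak. Jun has points in 8 libraries, from 16.2 to 101, and no other gene exceeds 13.3.

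Within its list the Jun peak stood at rank 68 of 919 and 124 of 1269 at RT, and at 208 of 2287 and 134 of 1670 in the first pair. It stood at 119 of 10399 and 134 of 10633 in TXNIP KO, and at 177 of 12644 and 147 of 14583 in the second pair. Set against the strongest chaperone peak of the same library, at Hspd1 and Hspe1, the Jun fold was 12.4% and 8.41% at RT and 5.43% and 7.12% in the first pair. It was 8.10% and 7.59% in TXNIP KO and 6.82% and 8.38% in the second pair. Jun thus stood between 1.01% and 9.77% of the way down its lists, and its fold was at most 12.4% of that of the leading chaperone. With each list held to its 919 strongest peaks, Jun remained the 1 bound AP-1 gene in both libraries of every group except 4 h. The presence of Jun there follows from the ranks above, and both 4 h lists hold fewer than 919 peaks. The share of all genes at this list length is not given here.

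**Figure D3:**
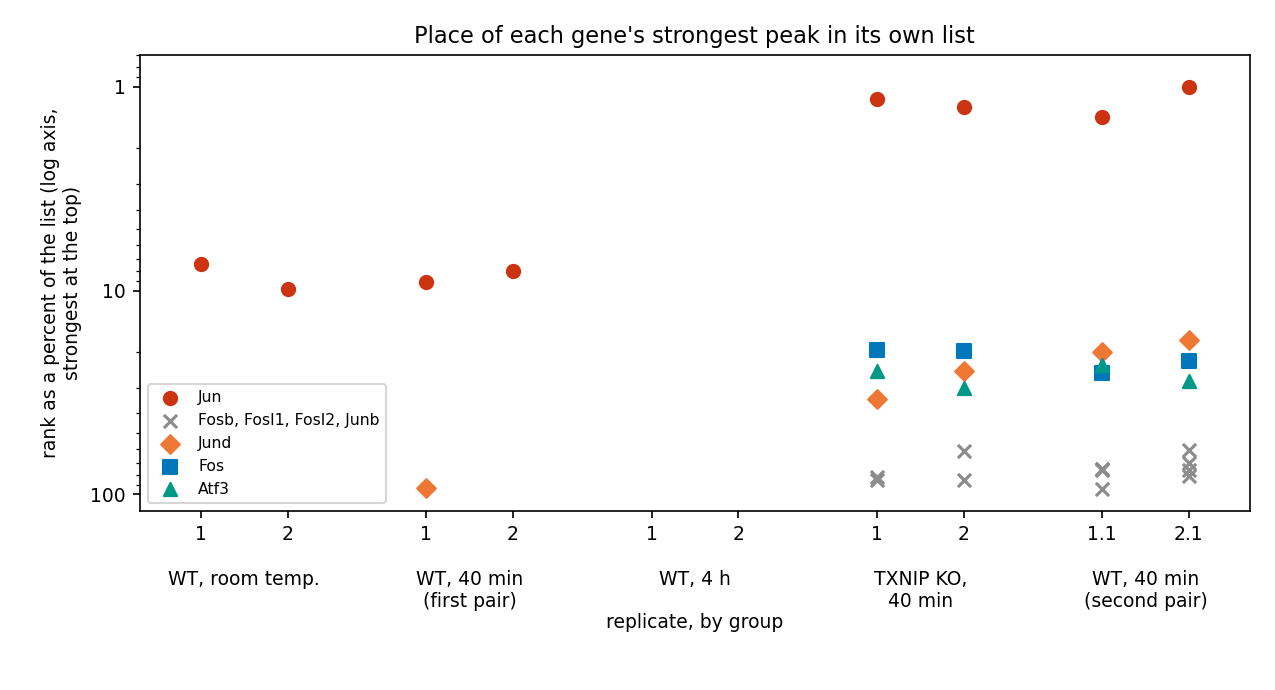
Rank of each AP-1 gene's strongest peak, as a percent of the number of peaks in its own list (log axis, strongest at the top), for each library. Jun (circles) lies between 1.01% and 9.77% in 8 libraries, while Fos, Atf3 and Jund lie between 17.5% and 33.9% in the 4 long lists. A rank describes a place within its own list, and lists differ in length.

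Binding of Jun after 40 min of cold was compared with RT relative to the 617 genes bound in all 4 libraries. The log2 fold of Jun relative to their median was 0.48 and 0.81 in the first pair, against 1.57 and 0.82 at RT. The mean difference was -0.55 on this log2 scale, and the groups did not overlap, with the higher 40 min value just under the lower RT value. Groups without overlap were seen for 53.5% of the 617 genes, so this feature is a common one. A two-sided exact permutation test over 2 against 2 libraries cannot give less than 0.33, and it gave p = 0.33.

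At 4 h Jun was called in 0 of 2 libraries, against 2 of 2 at RT. Of the 645 genes bound by both RT libraries, 63.4% were called in neither 4 h library. In the RT lists, 67 and 123 peaks ranked above Jun. Of the 67 ranked above it in replicate 1, 49 overlapped a peak of 4 h replicate 1 and 64 a peak of 4 h replicate 2. Of the 123 ranked above it in replicate 2, 63 and 102 did. Of the peaks that ranked below Jun, 6.23% and 25.6% were called at 4 h for RT replicate 1, and 4.1% and 18.3% for replicate 2. With lists held to 123 peaks, Jun was present in 1 of 2 RT libraries and in neither library of the first pair, so its absence from the 123 peaks of 4 h replicate 1 cannot be told apart from list length. Jun was absent from the 351 peaks of 4 h replicate 2 too. The strongest RT peak not called in that library stood at rank 44 in RT replicate 1 and at rank 30 in RT replicate 2. The reason for the absence of Jun there was not tested.

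The number of AP-1 genes bound per library averaged 0 at 4 h, against 1 ± 0 at RT (SD, n = 2 each; two-sided exact permutation test, p = 0.33). It averaged 1.5 ± 0.71 in the first pair, against 1 ± 0 at RT (SD, n = 2 each; exact permutation test, p = 1). The extra gene of first pair replicate 1 was Jund. The difference of 4 h minus the first pair was -1.5 genes (exact permutation test, p = 0.33), and 75.2% of the 1087 genes bound by both first pair libraries were called in neither 4 h library.

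Jund encodes the JUN family member that is expressed in most resting cells and is known as a brake on growth in fibroblasts. It lies on the plus strand of chromosome 8 at 70697739 to 70700616. Its window held 3 sites. The strongest site had folds of 7.75 and 10.0 in TXNIP KO, against 12.1 and 12.9 in the second pair, and it was also called in first pair replicate 1 with a fold of 4.11. This site lay beyond the end of Jund, with summits 516 to 782 bp past it and 15 to 189 bp from the nearest end of the next gene, Iqcn. A site inside the gene, 1049 to 1223 bp after the annotated start, was called in all 4 long lists with folds of 2.98 to 4.77. A further site about 1 kb before the start was called in 1 TXNIP KO library (4.74) and 1 second pair library (3.94).

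Junb encodes the JUN family member that often opposes c-JUN in cell growth. It lies on the minus strand of chromosome 8 at 84976909 to 84978748, and it was bound only in the second pair. The peak of replicate 1.1 had a fold of 3.38 and a summit at -1412 relative to the start. The peak of replicate 2.1 had a fold of 3.94 and a summit at 2512, past the end of the gene and 1425 bp from the nearest end of Prdx2. These peaks do not overlap, so with the same site required in both replicates 7 of the 8 genes, not 8, were bound in the second pair.

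**Figure D4:**
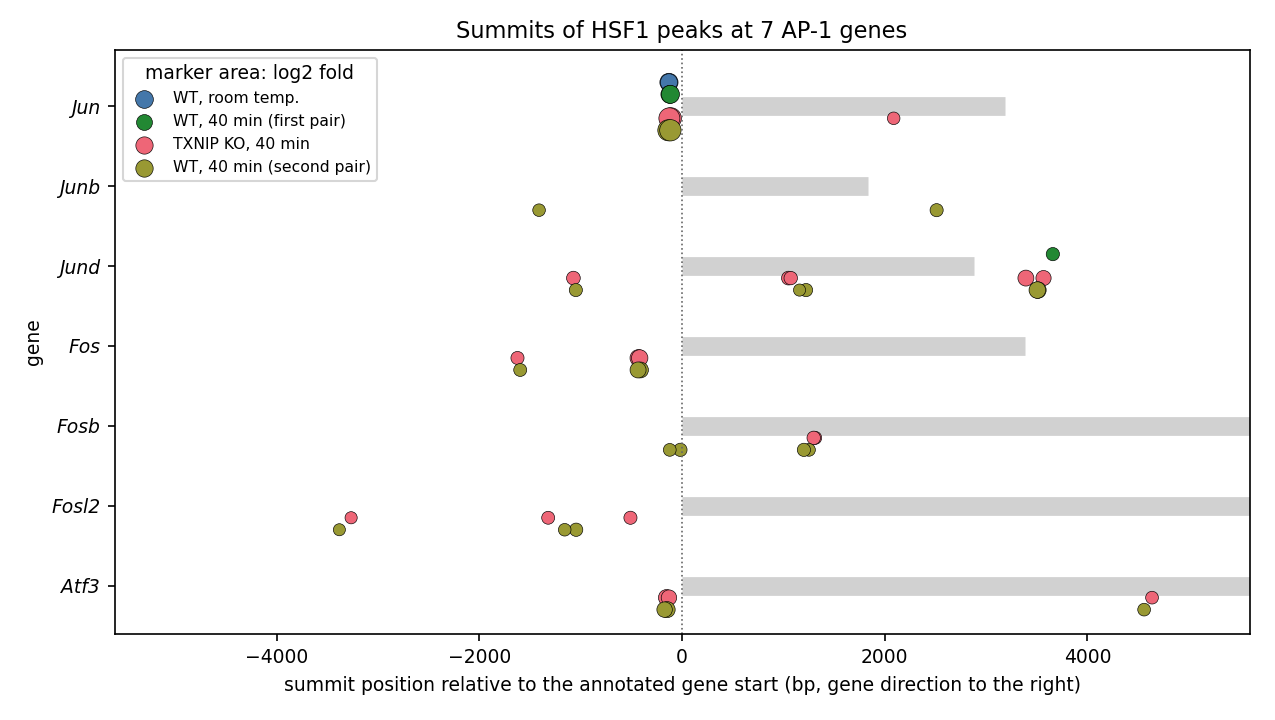
Summit positions of all HSF1 peaks within 5 kb of 7 AP-1 genes, in bp from the annotated start with transcription to the right. Grey bars are gene spans (cut at the right edge for Fosb, Fosl2 and Atf3), colours are groups, and marker area follows the log2 fold. Jun summits of 4 groups stack at -136 to -112, while the strongest Jund summits lie past the end of the gene.

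Fos encodes c-FOS, the best known immediate early factor and a partner of c-JUN. The gene is on the plus strand of chromosome 12 at 85473890 to 85477274. Its main site had folds of 13.3 and 12.2 in TXNIP KO, against 9.76 and 10.3 in the second pair, and was called in no other library. The TXNIP KO values lay above both second pair values. With folds taken relative to the median gene, groups without overlap were seen for 48.2% of the 4277 genes bound in all 4 libraries. The 4 summits fell within 24 bp, at -435 to -411 relative to the start, so they lay before the 250 bases of the promoter window. A weaker site at -1625 and -1598 was called in TXNIP KO replicate 1 (3.94) and second pair replicate 2.1 (3.77). Fos was the second AP-1 gene by fold in both TXNIP KO libraries, and Jund was the second in both second pair libraries. The Jund fold used here is that of its site past the gene end and near Iqcn. The ratio of the Fos fold to the Jund fold within a library was 1.71 and 1.22 in TXNIP KO, against 0.803 and 0.800 in the second pair, a contrast picked after its values were seen.

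Fosb encodes a FOS protein whose truncated form accumulates after repeated stimulation in brain. The span on chromosome 7, minus strand, runs from 19302696 to 19310118. A site inside the gene, 1202 to 1313 bp after the annotated start, had folds of 3.88 and 4.41 in TXNIP KO, against 3.57 and 4.09 in the second pair. A site at the start, with summits at -17 (fold 4.18) and -122 (fold 3.6), was called in both second pair libraries and in neither TXNIP KO library. These peaks ranked low, at 9577 of 12644 and 12220 of 14583. The second of these ranks lies past 10399, the length of the shorter TXNIP KO list. The share of all sites with such a pattern is not given here.

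Fosl2 encodes FRA-2, a FOS-related partner of JUN proteins. It lies on the plus strand of chromosome 5 at 32136472 to 32157840. Its main site had folds of 3.94 and 3.75 in TXNIP KO, against 4.18 and 3.4 in the second pair, with summits spread over 812 bp between -1322 and -510. A weaker site more than 3 kb before the start was called in 1 library of each of these groups, with folds of 3 in TXNIP KO and 2.92 in the second pair. The 250 bases before its start hold the other set of heat shock element letters found among these genes and are shown for comparison with Jun (RefSeq, GRCm38.p6, chr5:32136222-32136471, plus strand, capitals as above).
Fosl2: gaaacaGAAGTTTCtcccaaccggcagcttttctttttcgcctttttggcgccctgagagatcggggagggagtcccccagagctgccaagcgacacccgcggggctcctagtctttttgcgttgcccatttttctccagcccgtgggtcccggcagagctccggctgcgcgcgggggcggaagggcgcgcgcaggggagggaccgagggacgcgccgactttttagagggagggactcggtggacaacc
The letters GAAGTTTC begin at position -244, and the nearest summit lay 269.5 bp from their centre, against at most 12.5 bp at Jun.

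Fosl1 encodes FRA-1, another FOS-related protein. It lies on chromosome 19 at 5447698 to 5455938 and was bound only in the second pair, with highest folds of 4.18 and 4.12. Those summits were 1503 to 1585 bp from the Fosl1 span and 40 to 122 bp from an end of Ccdc85b, a gene that overlaps Fosl1. A further peak of replicate 2.1 (3.94) also lay inside Ccdc85b, 434 bp from the Fosl1 span.

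Atf3 encodes a stress-induced factor of the ATF family that represses many of its targets. On chromosome 1 it occupies the minus strand at 191170296 to 191183333. Its promoter site had folds of 11.0 and 8.49 in TXNIP KO, against 10.6 and 8.4 in the second pair, with overlap between the groups, and was called in no other library. The 4 summits lay at -173 to -130 relative to the start, a range that overlaps that of Jun. The 250 bases before the start are shown because these summits lie in them, and they hold no heat shock element letters of the kind searched (RefSeq, GRCm38.p6, chr1:191183334-191183583, minus strand).
Atf3: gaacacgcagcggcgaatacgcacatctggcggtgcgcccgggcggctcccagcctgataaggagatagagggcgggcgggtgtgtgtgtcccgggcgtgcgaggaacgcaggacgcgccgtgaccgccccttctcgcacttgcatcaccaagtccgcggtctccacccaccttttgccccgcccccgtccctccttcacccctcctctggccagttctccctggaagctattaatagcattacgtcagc
A site inside Atf3, 4560 to 4638 bp after the start, was called in 1 TXNIP KO library (3.53) and 1 second pair library (3.53).

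Promoter letters were searched in the promoter windows of RefSeq (250 bases before to 50 after the start) for 7 of the 8 genes, all but Fosl1. TTCNNGAA or GAANNTTC, which read the same on both strands, was found in 2 of the 7 windows, Jun and Fosl2, against 13.7% of 21238 windows of protein-coding genes. No window of the 7 held 3 adjoining units of alternating orientation (0.518% of all windows), the AP-1 letters TGANTCA (6.99%) or the cAMP response letters TGACGTCA (2.24%). Only exact matches were counted, so this does not show that these promoters lack variant forms of such elements. With all peaks counted, windows that contained an HSF1 summit held the 2 unit letters in 61.9% and 49.2% of cases at RT. The shares were 50.3% and 59.1% in the first pair and 81.0% and 70.3% at 4 h. Among the 919 strongest peaks these shares were 60.8% in RT replicate 2, and 60.9% and 66.7% in the first pair. They were 69.0% and 67.9% in TXNIP KO and 68.7% and 69.8% in the second pair. Past the 919 strongest peaks they were 22.1% and 21.2% in TXNIP KO and 17.4% and 16.7% in the second pair. Jun belongs to the first kind, with strong promoter summits at most 12.5 bp from the centre of the letters. Atf3 belongs to the larger set of weaker promoter summits, most of which have none. The peaks compared here are those of whole lists, and no test was run on these shares.

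Most AP-1 peaks outside Jun sat in the lower part of the long lists. The 8 windows held 49 peaks at 16 sites, 44 of them in the 4 long lists, and 29 of the 49 had a fold under 5. Strongest peaks of Fosb, Fosl1, Fosl2 and Junb stood between 60.6% and 94.4% of the way down their lists. In second pair replicate 1.1 the strongest peaks of Fosb, Fosl1 and Fosl2 had the same fold (4.18) and the same −log10 q (5.87), values shared by 444 of the 12644 peaks of that list. With −log10 q of at least 5 required, 5 genes remained in TXNIP KO and 6 in the second pair. The share of all genes under this limit is not given here.

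The comparison of TXNIP KO with WT at 40 min asks whether HSF1 sites depend on TXNIP, a protein that binds thioredoxin and limits the entry of glucose into cells. In TXNIP KO 6 and 6 of the 8 genes were bound, against 8 and 8 in the second pair (two-sided exact permutation test, p = 0.33, the smallest possible). Fosl1 and Junb were the genes bound by both second pair libraries and by neither TXNIP KO library, as were 10.6% of the 5813 genes bound by both second pair libraries. No AP-1 gene was bound the other way round, as 0.302% of all genes were. Both genes had folds of 4.18 or less in the second pair, and the TXNIP KO lists were shorter. With every list held to 10399 peaks, 6 and 6 genes were bound in TXNIP KO, against 7 and 6 in the second pair, which made the difference -0.5 genes in place of -2. Within 1 kb of the gene spans, the same 6 genes were bound by both replicates in both groups. With no flank the order turned, with 5 genes in TXNIP KO and 4 in the second pair, where Fos was not bound by both libraries. Shares of all genes at this list length and these flanks are not given here. With the first pair as control the direction turned, since that pair had 2 and 1 genes bound, and the labels do not say which pair was prepared with the knockout.

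Among 4277 genes bound in all 4 of these libraries, 6 were AP-1 genes. Relative to the median of the 4277, the log2 fold of Jun was 3.37 and 3.31 in TXNIP KO, against 3.21 and 3.35 in the second pair, and the groups overlapped. For Fos it was 0.56 and 0.53 in TXNIP KO, against 0.03 and 0.05 in the second pair, a difference of 0.51 that exceeded that of 94.7% of the genes. Jund, at its site past the gene end and near Iqcn, showed the opposite order. It had -0.21 and 0.24 in TXNIP KO, against 0.35 and 0.37 in the second pair, a difference of -0.34. Fosl2 differed by 0.19 without overlap, with its lower TXNIP KO value (-1.189) just above its higher second pair value (-1.193). Its folds before this adjustment overlapped between the groups. Atf3 (0.20) and Fosb (0.16) overlapped. By the share of the genes with a lower difference, Fos was the highest of the 6 at 94.7%. The others stood at 73.9% (Atf3), 73.1% (Fosl2), 69.8% (Fosb), 58.8% (Jun) and 14.6% (Jund). Groups without overlap were seen for 3 of the 6 genes and for 48.2% of all 4277, so the count is that of the background. The exact permutation p was 0.33 for Fos, Jund and Fosl2, the smallest that 2 against 2 libraries allow, and 0.67 for Jun, Atf3 and Fosb.

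**Figure D5:**
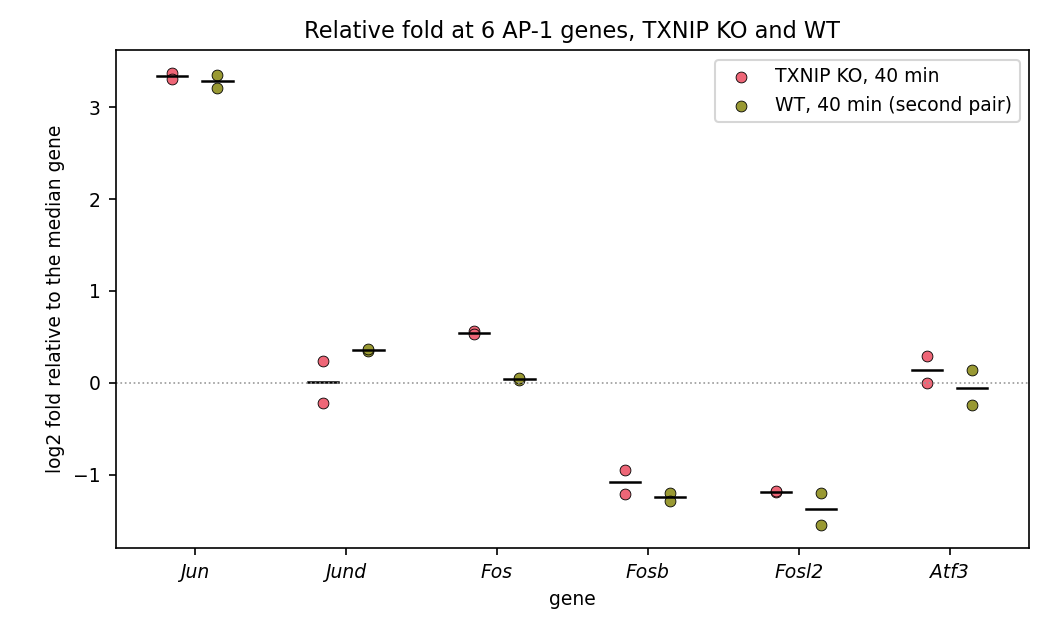
Log2 fold of the strongest peak at 6 AP-1 genes relative to the median of 4277 genes bound in all 4 libraries, for TXNIP KO (left points) and the second WT pair (right points) at 40 min of cold. Points are libraries and lines are means of 2. Fos points lie higher in TXNIP KO, Jund points (site past the gene end) lie lower in TXNIP KO, and Jun points overlap.

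Both WT pairs carry the label of 40 min of cold, and they gave the largest of the 5 differences between groups. The second pair had 8 and 8 AP-1 genes bound, against 2 and 1 in the first pair, a difference of 6.5 genes (two-sided exact permutation test, p = 0.33). Fos, Fosb, Fosl1, Fosl2, Junb and Atf3 were bound by both second pair libraries and by neither first pair library, as were 18.9% of all genes. With lists held to 1670 peaks, 1 and 1 genes were bound in each pair, in every case Jun. The share of all genes at that length is not given here. Relative to 1086 genes bound in all 4 libraries, Jun stood at 1.23 and 1.34 on the log2 scale in the second pair, against 1.07 and 1.39 in the first pair, with overlap (exact permutation p = 1; groups without overlap in 43.7% of the 1086). Whether the pairs were handled differently is not stated, and list length and pair cannot be told apart in the full lists.

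The genes whose pattern over the 10 libraries was most like that of Jun were Ap3b1, Itpkb, C2cd2, Hspbp1 and Fyn. Likeness was the mean absolute difference in the percentile of the strongest peak within each list, and it was 0.84 percentile points for Ap3b1, 0.86 for Itpkb, 0.96 for C2cd2, and 0.98 for both Hspbp1 and Fyn. Ap3b1 encodes a subunit of an endosomal adaptor complex, Itpkb an inositol trisphosphate kinase, Hspbp1 an exchange factor of HSP70 and Fyn a tyrosine kinase. All 5 were called in the same 8 libraries as Jun, which largely follows from how they were chosen. A library without a peak took the lowest percentile, so a call missing where Jun had one would have made a large difference. The pattern of calls was shown in full by 382 genes (1.75%).

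Among 16 genes of the dimer partners of FOS, JUN and ATF3, 0 were bound by both replicates at RT, 2 in the first pair, 0 at 4 h, 9 in TXNIP KO and 9 in the second pair. Shares in the long lists were thus 56.3% and 56.3%, beside 21% and 26.6% of all genes. Ddit3, which encodes the stress factor CHOP, had folds of 3.62 and 5.84 in the first pair, 12.9 and 10.0 in TXNIP KO and 18.1 and 18.2 in the second pair. Batf3, a partner of JUN proteins in immune cells, had 4.59 and 4.45 in the first pair, 6.7 and 5.91 in TXNIP KO and 16.3 and 16.1 in the second pair. Others bound in both long groups included Jdp2, with a highest fold of 14.8 in the second pair, Cebpb (13.7), Maff (7.76) and Nfe2l2 (6.52). Jdp2 encodes a repressor that pairs with JUN proteins, Cebpb an adipogenic factor, Maff a small basic leucine zipper protein and Nfe2l2 the oxidative stress factor NRF2.

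Of 21 kinases and factors upstream of AP-1, 7 were bound by both replicates in TXNIP KO and 8 in the second pair (33.3% and 38.1%, beside 21% and 26.6% of all genes). Rps6ka3, an ERK-activated kinase, and Mapk14, the p38α kinase, were bound by both libraries of the first pair. Rps6ka3 also had a peak in RT replicate 2 (5.86). Rps6ka3 had folds of 28.0 and 22.9 in TXNIP KO, against 32.5 and 36.7 in the second pair. Mapk14 had folds of 38.0 and 29.5 in TXNIP KO, against 29.7 and 32.2 in the second pair. Elk3, Creb1, Map3k5 and Map2k2 were bound in both long groups with folds of at most 8.34. Srf and Elk1, which act at the serum response element of Fos, and Mapk3, Map2k1, Map2k4, Map2k6, Map3k1 and Mapk10 had no peak in any library.

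Of 18 textbook AP-1 target genes, 1 was bound by both replicates at RT, 2 in the first pair, 0 at 4 h, 7 in TXNIP KO and 8 in the second pair. The shares were 5.56%, 11.1%, 0%, 38.9% and 44.4% in that order, beside 2.95%, 4.97%, 0.466%, 21% and 26.6% of all genes. Hmox1, which encodes heme oxygenase and is also a known heat shock gene in rodents, had folds of 11.0 and 11.5 at RT and 19.1 and 9.74 in the first pair. It had 64.5 and 52.2 in TXNIP KO, against 52.0 and 61.1 in the second pair, and like Jun it was not called at 4 h. Mt1, a metallothionein, had 4.7 and 5.48 in the first pair, 23.9 and 21.3 in TXNIP KO and 20.3 and 22.3 in the second pair. Vegfa, Cd44, Ccnd1, Vim and Ccl2 were bound by both replicates in TXNIP KO and the second pair and by both in no other group. Cd44 also had a peak in first pair replicate 1 (5.07). Mt2, a metallothionein gene next to Mt1, was bound by both replicates in the second pair alone (3.58 and 22.3). The 22.3 is also the Mt1 fold in that library, so the same peak may count for both genes. Mt2 is the gene by which the second pair count exceeds that of TXNIP KO. Of the matrix protease genes, Mmp9 had a peak in TXNIP KO replicate 2 (3.36), and Mmp3 and Mmp13 had none in any library.

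The 5 kb limit left 3 sites within 10 kb of these genes just outside. One lay 9613 to 9697 bp past the end of Fos and was called in RT replicate 1 (4.29), first pair replicate 1 (3.87), both TXNIP KO libraries (12.1 and 13.4) and both second pair libraries (15.7 and 13.2). A peak 7708 bp before Jund (5.24) was called in second pair replicate 2.1, and a peak 6913 bp before Junb (4.5) in TXNIP KO replicate 1. The site nearest to the limit on its inner side was the weaker Fosl2 site, 3267 to 3383 bp before its start.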

How the data were processed

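HSF1 ChIP-seq was measured in 10 libraries of mouse BAT, and 5 input samples were not analysed here. MACS2 2.2.7.1, deepTools 3.4.3, SAMtools, BWA 0.7.17 and Trim Galore 0.6.0 are named, with build GRCm38.p6, in the submitters' processing notes, without roles. Read filters and the input used for each library were not given in the sources used here, and 1 input is titled RT but labelled as 40 min of cold. Each ChIP library has 1 narrow peak list as the authors deposited it. The deposited fold is a linear ratio of signal at the summit to local background, and the lists also give the −log10 of p and q per peak and the summit offset. A deposited integer score was not used.

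Chromosomes 1 to 19, X and Y were kept, and peaks were ranked by −log10 p. Genes came from a RefSeq table of GRCm38.p6, and strand and start from its promoter table. Overlap meant at least 1 bp. Peaks in a window that overlapped between libraries were merged into sites. The overlap step was tested on simulated data, and Python 3.11.15 with pandas 2.3.3 and NumPy 2.4.6 was used.

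Counts of bound genes per library were compared over 5 group pairs by two-sided exact permutation tests. No set test was run. All 8 genes were named, and in each of 4 related lists every gene bound by both replicates of any short-list group (RT, first pair or 4 h) was named, with up to 5 others by fold in the second pair, except genes that are not reported here. The second pair served as control of TXNIP KO. Members and lists were chosen with earlier results of these data known, and the relative fold was added after seeing the data.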

Additional observations from a re-analysis of the deposited data

How the results depend on the processing

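The counts of bound AP-1 genes changed with list length. Shares of all genes at other list lengths, flanks or q limits are not given here, so those counts have no background beside them. With 919 peaks per list, 1 gene was bound in TXNIP KO and 1 in the second pair, and with 123 peaks the count was 0 at RT and in the first pair, and 0 in TXNIP KO and the second pair. With no flank, 5 genes were bound in TXNIP KO and 4 in the second pair, which turns the order of these counts. A peak of at least 1 replicate gave 2 in the first pair, and single libraries gave 1 to 2 there. The difference of the first pair minus RT was 0 with 919 peaks and 0 to 1 when libraries were left out. That of 4 h minus the first pair was 0 with 123 peaks, and that of the second minus the first pair was 0 with 1670 peaks. TXNIP KO minus WT was 4.5 with the first pair as control, and the cause was not tested. Genes as long as the members had backgrounds of 18.4% in TXNIP KO and 22.6% in the second pair. Requiring 3 adjoining units left 0 promoters with heat shock element letters. TXNIP KO minus the second pair was -0.5 in place of -2 with 10399 peaks, and 4 h minus RT was -0.5 in place of -1 with 123 peaks. No other recomputed value changed direction. With the replicate number as a block (exact sign-flip test), the differences stayed 0.5, -1 and -1.5 genes for the first pair minus RT, 4 h minus RT and 4 h minus the first pair. Same-numbered libraries did not deviate together: the correlation of replicate differences across genes, which are not independent replicates, was -0.08 (RT and first pair), -0.01 (RT and 4 h) and -0.24 (first pair and 4 h). A replicate block with crossed numbers, chosen after seeing the data, left the last difference at -1.5 genes. TXNIP KO and the second pair share no replicate number in the labels. Since depth is unknown, a gene without a peak is one not called, not one shown to be unbound.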

Other observations

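Farther from the AP-1 genes, between 5 and 50 kb from their spans, lay 32 sites (summits at most 500 bp apart merged), and 4 of them reached folds over 20. Which gene a distant site acts on was not tested. The strongest lay 41015 to 41086 bp upstream of Atf3, at chromosome 1, 191224348 to 191224419 (GRCm38), and Atf3 was the nearest protein-coding gene. It was called in 9 of 10 libraries, with folds of 22.2 and 19.6 at RT, 27.8 and 24.2 in the first pair, 86.6 and 87.2 in TXNIP KO and 112 and 120 in the second pair. At 4 h it was called in replicate 1 (5.28, rank 108 of 123) and not in the longer list of replicate 2. At RT it ranked 71 of 919 and 79 of 1269, where Jun ranked 68 and 124.

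A site 19437 to 19496 bp past the end of Jund was called in 10 of 10 libraries, including both at 4 h (4.87 and 7.24), and reached 52.7 and 55.3 in TXNIP KO, against 49.0 and 50.7 in the second pair. It lies inside Gm3336, 1558 to 1617 bp from an end of that gene. A site 22934 to 23013 bp upstream of Fosb had folds of 10.1 and 7.96 in the first pair, 39.0 and 34.0 in TXNIP KO and 39.0 and 37.7 in the second pair, and was called in no RT or 4 h library. It was nearer to Ercc1 (10936 to 11015 bp). Fosl2 had no peak between 5 and 50 kb in any library.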
